A study of Mus musculus with 12 samples.

Results

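m6A peaks at gene ends are the 17808 peaks, of 118075 listed over 6 libraries, that end near the end of a protein-coding gene. They were taken by position. Each overlapped exactly 1 RefSeq protein-coding gene with a span of 10000 bases or more, and its downstream edge, read along the strand of the peak, lay within 2000 bases of the gene end on that strand. Of these peaks, 8619 came from iNSC lists and 9189 from SSC lists. The other 84707 peaks that overlapped exactly 1 gene of that span served for comparison. They are called other peaks here.

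The study profiled N6-methyladenosine (m6A) by antibody pull-down of mRNA fragments of about 200 nt from mouse cells of 2 kinds, with 3 immunoprecipitation libraries of each. iNSCs, the neural stem cell-like cells, had been made from cultured SSCs on laminin, with 1 µM retinoic acid for 24 h in the SSC medium and then a neural medium that held 10 µM SB431542, which blocks TGF-β type I receptor kinases, and 20 ng/mL basic FGF. SSCs, the spermatogonial stem cells of the testis, had grown on inactivated STO fibroblast feeders in a medium with GDNF, LIF, EGF and 10 ng/mL basic FGF. Titles and source names were followed for the groups, because in all 12 samples the field for cell type gives the other kind. The series title speaks of MeDIP, a method for DNA, whereas the protocols describe m6A immunoprecipitation of RNA, and the peaks are read as m6A on that basis. No input library was analysed here, and the absence of a peak may mean little transcript or little methylation. In bulk RNA, fewer cells of a kind and less RNA per cell cannot be told apart either.

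m6A is placed on mRNA by the METTL3-METTL14 complex, mostly at adenosines in a short consensus built around GGAC. In most mammalian tissues the mark is concentrated near the stop codon and in the first stretch of the 3′ untranslated region, and much of it lies in long last exons. Proteins with a YTH domain read it there and act on translation and decay of the transcript. The gene table used here holds gene spans only, so the distance to the gene end stands in for the position along the last exon, and a peak may span an intron.

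The lists held 13913 to 16060 peaks in the iNSC libraries and 19728 to 27597 in the SSC libraries, with 1 score per peak from the authors and no read counts, so depth is unknown. The last 2000 bases make up 2.74% of the span of the genes considered, and end peaks made up 20.3% to 22.6% of the peaks in iNSC lists and 13.1% to 16.0% in SSC lists. End peaks thus exceeded that share of the span in every list, but the span counts introns, whereas the peaks come from mRNA fragments. Peaks whose upstream edge lay within 2000 bases of the gene start made up 9.69% to 15.2% in iNSC lists and 8.78% to 14.1% in SSC lists. The share at ends exceeded that at starts in 6 of 6 lists, but only by 0.734 points in SSC 2 and 0.183 points in SSC 3. Among 6 germ cell markers, 0, 0 and 1 held a peak anywhere in the iNSC lists and 5, 4 and 4 in the SSC lists. Of 6 fibroblast markers, 5, 5 and 6 held one in the iNSC lists, against 5, 4 and 6 in the SSC lists. Neural markers had a peak for 2 of 6 in each iNSC list and 4 of 6 in each SSC list, which does not follow the cell names, and testis somatic markers had one for 1, 2 and 2 of 6 in iNSC lists and 6, 4 and 4 of 6 in SSC lists. Whether these other cells had a part in the end peaks was not tested.

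Sequence could be read under an end peak only where the peak covered a RefSeq gene-start window (250 bases before to 50 after a gene's start, GRCm38.p6), which was the case for 35 windows in 31 genes. These windows are shown because 21 of them mark end peaks that lie on the strand opposite to the gene, at its start. Among the 21, a window under an Ano6 peak belongs to the start of another gene, A130051J06Rik. The letters GGACT stood on the strand of the peak in 11 of the 35 windows (31.4%), and AGTCC, the same letters on the other strand, in 9 (25.7%). Over all 32851 windows the shares were 26.1% and 26.0%. So GGACT was about as frequent under these peaks as in gene-start windows in general, and a match is a description of letters only. The 29-base stretches below are centred on GGACT, in capitals, and run 5′ to 3′ on the strand of the peak.
Zbtb8a, chr4:129354297-129354325, minus strand, under the end peak of all 6 lists: cgatggagacaaGGACTgccggtggcacc
S1pr3, chr13:51418738-51418766, plus strand, under the end peak of the 3 iNSC lists: gcgccctctcgtGGACTgttgaagtaacc
Zc3h6, chr2:128967353-128967381, minus strand, opposite to the gene, 3 iNSC and 2 SSC lists: acaccttgcccgGGACTaaagggcaagtg
Tmem237, chr1:59120423-59120451, plus strand, opposite to the gene, 3 iNSC and 1 SSC lists: cccggcctccggGGACTtgtgggaggagg
Aak1, chr6:86849221-86849249, minus strand, opposite to the gene, 3 iNSC and 1 SSC lists: aatctggcatctGGACTacaattcccaag
Aak1, chr6:86849164-86849192, same strand and lists: cgccgtctccagGGACTggagatgatagt

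In Zbtb8a, a zinc finger gene, the printed site lies 665 bases from the gene end and inside the end peak of every list. S1pr3 encodes a receptor for sphingosine 1-phosphate, and its site lies 4031 bases from the gene end, inside an end peak of each of the 3 iNSC lists. Both stretches come from the start window of another gene on the other strand, LOC108168979 for Zbtb8a and Gm32834 for S1pr3. The printed Zc3h6, Tmem237 and Aak1 stretches lie outside the gene span, just before the gene start. Their positions are -49 bases for Zc3h6, -29 for Tmem237, and -53 and -110 for Aak1. The full window of Aak1, a kinase of clathrin-coated vesicle formation, is printed because it holds the motif at 2 places under a peak read against the gene.
Aak1 start window, chr6:86849034-86849333, minus strand: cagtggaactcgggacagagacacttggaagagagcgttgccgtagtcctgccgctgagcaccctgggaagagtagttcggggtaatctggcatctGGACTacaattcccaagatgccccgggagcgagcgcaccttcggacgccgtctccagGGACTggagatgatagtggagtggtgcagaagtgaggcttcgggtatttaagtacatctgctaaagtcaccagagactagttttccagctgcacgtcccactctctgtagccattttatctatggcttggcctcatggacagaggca

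End peaks on the strand opposite to the gene were a small class. Gene strand was known for 14475 end peaks, and 154 of them (1.06%) lay on the opposite strand, against 0.319% of the other peaks. Each iNSC list held 24, 21 and 28 of these peaks and each SSC list 21, 23 and 37, so the groups overlapped. They fell in 60 genes, of which 3 (Mindy2, Ano6 and Golph3) held one in all 6 lists and 25 in 1 list. The Aak1 peak was identical in the iNSC lists, 1034 bases wide, and 824 bases wide in SSC 2, the SSC list that held it.

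End peaks were a larger share of the peaks in iNSCs than in SSCs, although not more numerous. They were 22.6%, 22.5% and 20.3% of all peaks in genes of this span in the iNSC lists, against 16.0%, 13.1% and 14.3% in the SSC lists. Every iNSC list lay above every SSC list. The means were 21.8% ± 1.29 in iNSCs and 14.5% ± 1.48 in SSCs (SD, n = 3 each), a difference of 7.33 percentage points. The exact two-sided permutation test gave p = 0.1, the smallest that 3 lists against 3 allow, and an adjusted p of 0.12 over 12 such comparisons (Benjamini-Hochberg). No comparison between the cell kinds below can pass 0.05 for that reason, and p measures only the spread between these libraries, since the labels do not say whether they came from separate cultures.

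The number of end peaks did not separate the groups. The iNSC lists held 2704, 3107 and 2808 end peaks, and the SSC lists 3895, 2263 and 3031. Those of SSC 1 and SSC 2 lay outside the range of the iNSC lists on either side. The difference of -190 (iNSC minus SSC) had an exact permutation p of 0.8, and it became 958 with p = 0.1 (exact permutation) when every list was reduced to the 13913 best-scoring peaks. Genes with an end peak numbered 2604, 2964 and 2687 in iNSC lists and 3494, 2144 and 2773 in SSC lists. As a share of the genes with a peak, they were 49.3%, 52.4% and 47.7% in iNSCs, all above the 43.4%, 32.3% and 35.1% in SSCs (exact permutation p = 0.1). At the other end of the gene, peaks whose upstream edge lay within 2000 bases of the gene start made up 12.5% ± 2.77 of the peaks in iNSCs and 11.7% ± 2.70 in SSCs (SD, n = 3 each; exact permutation p = 0.7).

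**Figure D1:**
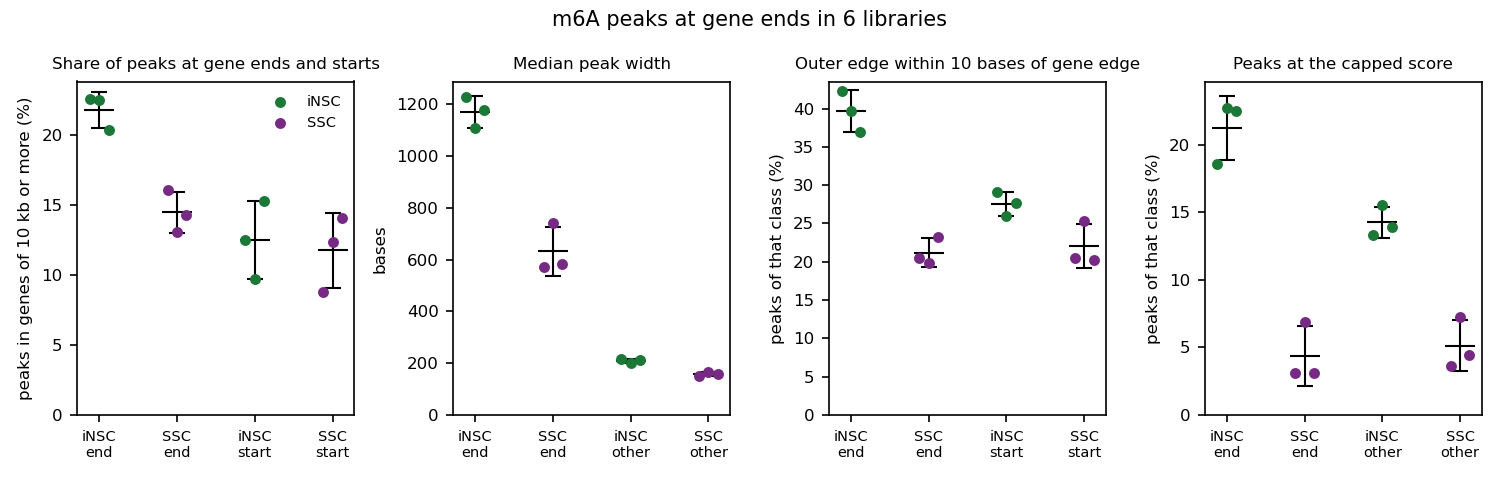
Each point is 1 library, with the group mean and SD as a bar, for the share of peaks at gene ends and starts, the median width of end and other peaks, the share of end and start peaks whose outer edge lies within 10 bases of the gene edge, and the share at the capped score. The iNSC libraries lie above the SSC libraries for end peaks in all 4 panels, and the groups overlap for the share of peaks at gene starts.

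The gap in share lay with peaks that stopped in the last 500 bases. Downstream edges 0 to under 500 bases inside the gene end accounted for 12.4% ± 0.752 of peaks in iNSCs and 6.53% ± 0.652 in SSCs (SD, n = 3 each), with no overlap between the groups (exact permutation p = 0.1). At 500 to under 1000 bases the shares were 2.90% ± 0.181 in iNSCs and 2.71% ± 0.467 in SSCs, and the groups overlapped (exact permutation p = 0.6, n = 3 each). The groups overlapped in every step up to 3000 bases. At 3000 to under 3500 bases they stood apart again by a small margin, with 1.89% to 2.13% in iNSC lists and 1.63% to 1.83% in SSC lists (exact permutation p = 0.1). The iNSC lists were also higher in the step from 5000 bases, and the SSC lists in the steps from 7000, 8000 and 9500 bases.

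**Figure D2:**
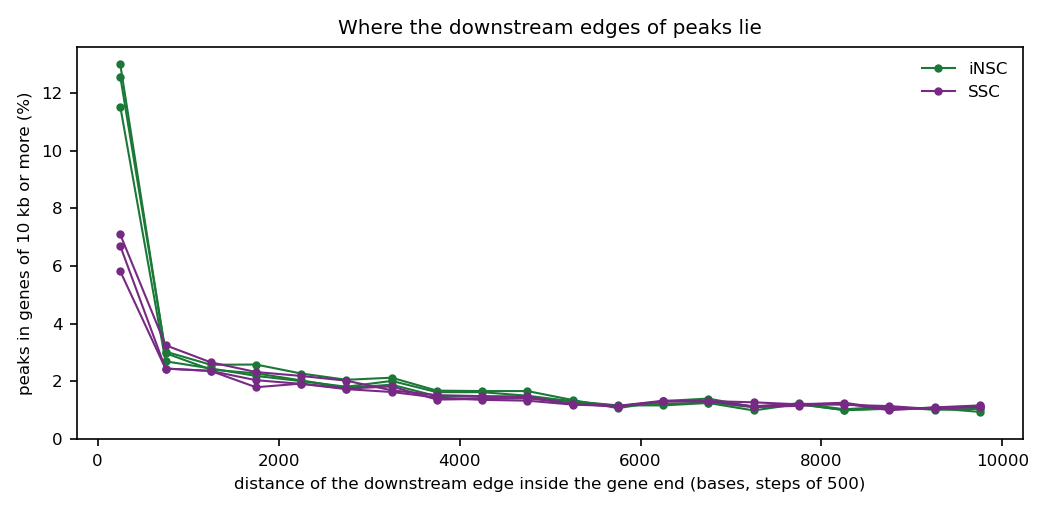
Share of peaks (y axis, percent of the peaks in genes of 10 kb or more) whose downstream edge falls in each 500-base step inside the gene end (x axis), 1 line per library. The first step holds 12.4% of peaks on average in iNSC lists and 6.53% in SSC lists, and the lines of the groups overlap in the steps from 500 to 3000 bases.

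Many end peaks stopped on the annotated gene end itself. A downstream edge within 10 bases of the gene end was found for 42.3%, 39.7% and 36.9% of end peaks in iNSC lists, against 20.5%, 19.8% and 23.3% in SSC lists. The iNSC values were 1.87 times the SSC values on average, and no list of one kind overlapped the other (exact permutation p = 0.1, adjusted p = 0.12). The median edge lay 32, 79 and 88.5 bases inside the gene end in iNSC lists and 539, 514 and 453 bases inside in SSC lists, a difference of -435.5 bases that became -140 bases with a window of 1000 bases. Exactly on the last annotated base ended 26.4% of the end peaks in iNSCs and 14.3% in SSCs. At gene starts, the upstream edge fell within 10 bases of the gene's first base for 27.6% ± 1.58 of start peaks in iNSCs and 22.0% ± 2.87 in SSCs (SD, n = 3 each), a smaller gap. Of all end peaks, 1096 (6.15%) reached past the annotated end.

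End peaks were also the wide peaks of every list, and more so in iNSCs. Their median width was 1230, 1107 and 1180 bases in iNSC lists and 572, 742 and 584 bases in SSC lists. Every iNSC median exceeded every SSC median, with means of 1172 ± 61.9 bases in iNSCs and 633 ± 94.9 bases in SSCs (SD, n = 3 each; ratio 1.85; exact permutation p = 0.1). Other peaks had medians of 216, 200 and 211 bases in iNSCs and 150, 165 and 160 bases in SSCs, a ratio of 1.32. End peaks exceeded other peaks in 6 of 6 libraries, by 719 bases on average (exact sign-flip permutation p = 0.031, the smallest 6 libraries allow, and 0.0521 adjusted over 5 such measures). That excess was 1014, 907 and 969 bases in iNSC lists and 422, 577 and 424 bases in SSC lists.

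The difference ran through the whole distribution of widths. Peaks of 1000 bases or more were 58.9% ± 3.01 of end peaks in iNSCs and 28.6% ± 4.79 in SSCs, and 13.7% ± 1.04 of other peaks in iNSCs and 5.66% ± 0.797 in SSCs (SD, n = 3 each). Peaks under 200 bases were 2.44% of end peaks in iNSCs and 7.23% in SSCs, against 48.0% of other peaks in iNSCs and 61.4% in SSCs. End peaks covered 4043, 4157 and 4000 kb in the iNSC lists and 3041, 2158 and 2499 kb in the SSC lists. They were 44.5% ± 1.19 of all bases under peaks in these genes in iNSCs and 32.2% ± 1.99 in SSCs (SD, n = 3 each).

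Both gaps were present in every class of gene span. In genes with a span from 10000 to under 20000 bases, end peaks were 38.7% of peaks in iNSCs and 29.2% in SSCs. In genes of 200000 bases or more they were 14.3% in iNSCs and 8.55% in SSCs. Median widths by span class ran from 1095 to 1342 bases in iNSCs and from 561 to 689 bases in SSCs, so the groups stood apart in each of 5 classes. At the edge of the 2000-base window, the 201 iNSC and 218 SSC end peaks that stopped in its innermost 100 bases had median widths of 1075 and 476 bases. The 184 iNSC and 268 SSC peaks in the 100 bases just outside it had median widths of 996.5 and 408.5 bases.

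A gene's end site could be followed in the same place in all 6 lists at 540 sites, each called as exactly 1 end peak per list and overlapping across lists. This set was chosen after the data were seen. Here the median width was 1203.5, 1173 and 1192 bases in iNSC lists and 908, 933.5 and 977.5 bases in SSC lists, a ratio of 1.27 (exact permutation p = 0.1, adjusted p = 0.133 over 4 measures). The 3339 other sites followed in the same way had medians of 191, 191 and 191 bases in iNSCs and 186, 191 and 188 bases in SSCs (exact permutation p = 0.4). Most of them had the same upstream edge, and most the same downstream edge, in all 6 lists, which leaves a median little room to differ. Their mean widths stood apart, at 462.6, 456.1 and 452.7 bases in iNSC lists and 428.0, 437.7 and 438.2 bases in SSC lists. Sites wider in every iNSC list than in any SSC list numbered 147 of 540 at gene ends (27.2%), against 135 of 3339 elsewhere (4.04%). Sites narrower in every iNSC list were 14 at gene ends (2.59%) and 10 elsewhere (0.299%).

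The downstream edge differed more often than the upstream edge at end sites. The upstream edge was the same base in all 6 lists at 389 of the 540 end sites (72.0%) and at 2840 of the other sites (85.1%). The downstream edge was the same base at 100 end sites (18.5%) and at 2863 other sites (85.7%). It lay further downstream in every iNSC list at 119 end sites (22%) and further upstream in every iNSC list at 14. Elsewhere it lay further downstream in every iNSC list at 79 sites (2.37%). The upstream edge lay further upstream in every iNSC list at 29 end sites (5.37%) and at 59 other sites (1.77%). On average iNSC peaks reached 165 bases further downstream and 49.8 bases further upstream than SSC peaks at end sites, and 13.8 and 8.70 bases at other sites.

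**Figure D3:**
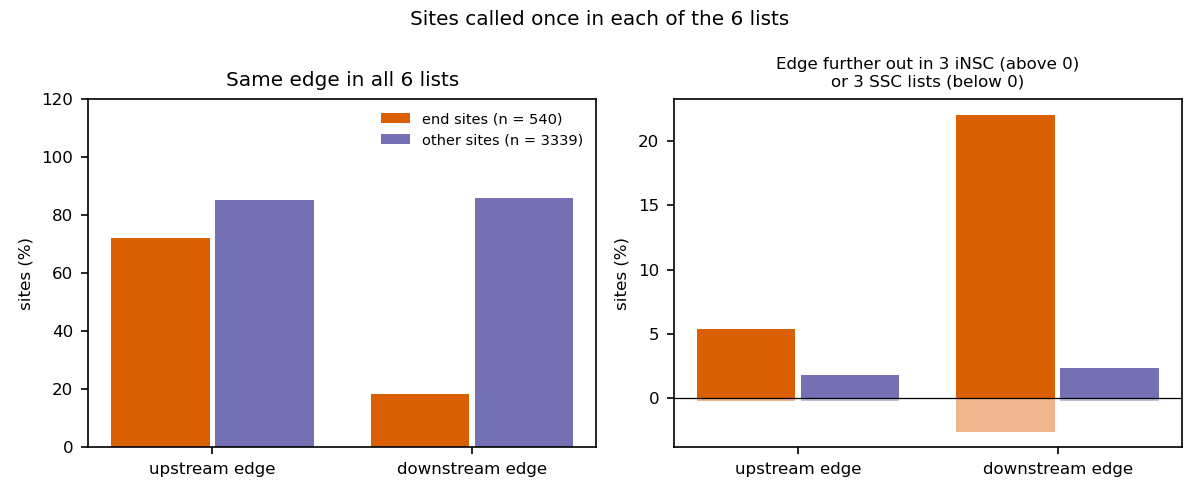
Left, share of sites (y axis, percent) with the same upstream or downstream edge in all 6 lists, for 540 end sites and 3339 other sites. Right, share of sites whose edge lies further out in every iNSC list (above 0) or in every SSC list (below 0, pale); the tall bar is the downstream edge of end sites, 22% further out in iNSCs.

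Efnb2, which encodes ephrin-B2, a membrane-bound ligand of Eph receptors in axon guidance and vessel formation, shows the pattern at 1 gene (chr8:8617235-8661242, minus strand). Its end peak began at the same base in all 6 lists, 3741 bases before the gene end. The peak was 3543, 3461 and 3177 bases wide in iNSC lists and 2132, 2077 and 2054 bases wide in SSC lists. It stopped 199, 281 and 565 bases before the gene end in iNSCs and 1610, 1665 and 1688 bases before it in SSCs, with no overlap. Sema3f, a secreted axon repellent, had end peaks of 1313, 1182 and 1278 bases in iNSCs and 899, 778 and 1012 bases in SSCs. Kat6a, a histone lysine acetyltransferase, ran the other way, with 4103, 4167 and 4299 bases in iNSC lists and 4503, 5006 and 4502 bases in SSC lists. Prdm9, the histone methyltransferase that places meiotic recombination sites, had 1473, 1541 and 1453 bases in iNSCs and 2282, 1800 and 1526 bases in SSCs, so its groups overlapped.

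Some end peaks had the same width in both cell kinds. Ythdc1, a nuclear m6A reader, had an end peak of 976, 963 and 976 bases in the iNSC lists and of 976, 963 and 976 bases in the SSC lists. Eif3a, a subunit of the translation initiation factor eIF3, differed, with main end peaks of 1147, 1189 and 1056 bases in iNSCs and 830, 934 and 903 bases in SSCs. Arid1a, a subunit of the BAF chromatin remodelling complex, had 3048, 2691 and 2829 bases in iNSCs and 2807, 2694 and 2761 bases in SSCs, so its groups overlapped.

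Coverage along the gene gave the same order over the 684 genes with an end peak in all 6 lists. At 2000 bases before the gene end, a peak covered 41.2%, 40.9% and 42.0% of these genes in iNSC lists and 35.96%, 35.8% and 37.0% in SSC lists. At 500 bases before it, coverage was 68.0%, 64.9% and 65.5% in iNSCs and 50.9%, 50.1% and 53.7% in SSCs. On the last base it was 43.4%, 39.2% and 36.1% in iNSCs and 26.2%, 23.0% and 29.2% in SSCs. The groups stood apart at each of these positions. These genes were chosen for having an end peak in both cell kinds.

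**Figure D4:**
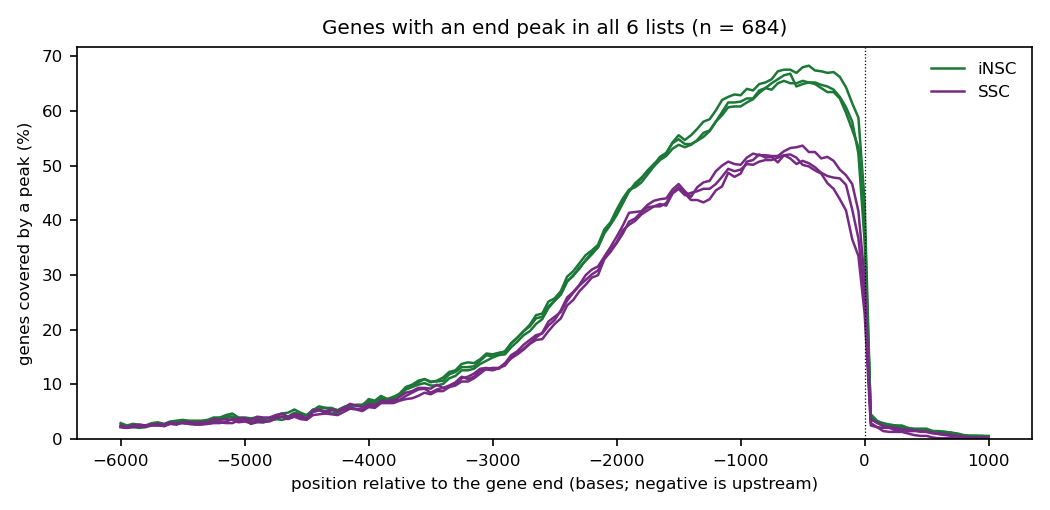
Share of the 684 genes with an end peak in all 6 lists that a peak covers (y axis, percent) by position relative to the gene end (x axis, bases), 1 line per library. The iNSC lines lie above the SSC lines over about the last 2000 bases, with 64.9% to 68.0% in iNSCs and 50.1% to 53.7% in SSCs at 500 bases before the end.

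Scores were compared only within a list, as percentiles from 0 to 100, with 100 for the best score. End peaks ranked high in iNSC lists and in the middle in SSC lists. The median percentile of end peaks was 59.4, 60.7 and 62.5 in iNSC lists, above the 45.6, 45.3 and 45.1 of other peaks there. In SSC lists it was 51.3, 49.0 and 47.5 for end peaks and 49.4, 49.7 and 50.3 for other peaks. The excess of end over other peaks was 13.9, 15.3 and 17.4 points in iNSCs and 1.85, -0.783 and -2.87 points in SSCs. These groups did not overlap (difference 16.1 points, exact permutation p = 0.1), and the difference was 7.31 points in the better-scoring 50% of each list. Over the 6 libraries together the excess had a sign-flip permutation p of 0.1875 (n = 6, exact). Many scores tie at 3100 and some lie above it, and 3100 or more is called capped here. Capped scores were held by 18.5%, 22.7% and 22.5% of end peaks in iNSC lists and by 3.08%, 6.89% and 3.10% in SSC lists. Of other peaks, 13.3%, 15.6% and 13.9% were capped in iNSC lists and 3.66%, 7.25% and 4.45% in SSC lists.

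Bases under end peaks were more alike among iNSC lists than among SSC lists. The Jaccard index (shared bases over all bases covered by either list) averaged 69.9% for pairs of iNSC lists and 34.2% for pairs of SSC lists. For pairs of an iNSC and an SSC list it averaged 29.3%. The gap of pairs within a kind over pairs between kinds was 22.8 points (exact permutation over 10 splits, p = 0.1), and 20.7 points for other peaks. It depends on the make-up of the set: it was 13.4, 14.3 and 13.9 points without iNSC 1, 2 or 3, and 32.8, 30.6 and 31.6 points without SSC 1, 2 or 3. Of the end peaks of an iNSC list, 46.2% on average overlapped no peak of a given SSC list, 49.9% overlapped 1 and 3.89% overlapped more than 1. Of the end peaks of an SSC list, 49.8% overlapped no iNSC peak, 49.9% overlapped 1 and 0.303% more than 1. Gas2l1, a linker of actin and microtubules, shows an end that was called whole in iNSCs and in pieces in SSCs. Gas2l1 had 1 end peak of 2559, 2559 and 2555 bases in the iNSC lists. SSC 1 held 2 end peaks of 344 and 741 bases, SSC 2 held 3 of 425, 745 and 624 bases, and SSC 3 held 2 of 806 and 1382 bases. Over all genes with an end peak, the mean number per gene was 1.04 ± 0.00502 in iNSCs and 1.09 ± 0.0300 in SSCs (SD, n = 3 each; exact permutation p = 0.1). With lists of equal length that difference was -0.00177 (exact permutation p = 0.6), so it was not seen apart from the length of the lists.

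Of 10196 genes of this span with a peak in any list, 5850 held an end peak in at least 1. An end peak in all 6 lists was found in 684 genes (6.71%). Many of these tie at the capped score, and the 8 widest of the tied genes were Kat6a, Dido1, Champ1, Jade1, Phf3, Arid1a, Zswim9 and Arhgap21. In 397 genes (3.89%) the 3 iNSC lists and no SSC list held one, and in 258 genes (2.53%) the 3 SSC lists and no iNSC list did. Without SSC 1 the counts became 672 and 358, and without SSC 3 they became 568 and 398. For a peak anywhere in the gene, the same rule gave 194 iNSC-only genes (1.9%) and 1203 SSC-only genes (11.8%). iNSC-only genes outnumbered SSC-only genes for end peaks, and the reverse held for peaks in general. The order for end peaks turned without SSC 2, to 468 iNSC-only and 544 SSC-only genes, and with 2 of 3 lists in place of 3, to 587 and 784. Of the 397 iNSC-only genes, 294 had a peak that was not an end peak in at least 1 SSC list, and 103 had no SSC peak. Of the 258 SSC-only genes, 49 had an iNSC peak that was not an end peak, and 209 had no iNSC peak.

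Among the 3409 genes with a peak in all 6 lists, an end peak was held by the 3 iNSC lists alone in 144 (4.22%) and by the 3 SSC lists alone in 30 (0.88%). For peaks at gene starts the same rule gave 59 genes (1.73%) and 75 genes (2.2%). At 31 of the 144 genes an SSC peak overlapped the iNSC end site, and at 1 of the 30 an iNSC peak overlapped the SSC site, so that most of these were sites without any peak in the other cell kind. In 47 of the 144 an SSC peak stopped 2000 to 4000 bases before the gene end. The counts depend on single SSC lists: without SSC 1 they were 317 and 49, without SSC 2 the SSC count was 83, and without SSC 3 they were 250 and 65.

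The 8 first-ranked of the 144 were Ehd2, Smad3, Cpd, Zfp282, Rock2, Zbtb7b, Mier3 and Mtdh. All 8 tie at the capped score in the iNSC lists, so their order is that of total peak width. Smad3, which carries TGF-β and activin signals to the nucleus (chr9:63646766-63757994), had an end peak of 3619 bases in each of the 3 iNSC lists, 1 base short of the gene end. The SSC lists held 1, 2 and 2 peaks in Smad3 that were not end peaks. Ehd2, an ATPase of caveolae, had 3816 bases in each iNSC list. Rock2, a kinase of the actomyosin cytoskeleton, had 2980, 2846 and 2720 bases in the iNSC lists, and 14, 14 and 14 peaks over the gene in iNSCs against 16, 14 and 13 in SSCs. Thus Rock2 held similar numbers of peaks in both cell kinds, and an end peak in the iNSC lists alone. Whether an SSC peak overlapped the Rock2 end site was not looked at for this gene by itself.

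The 8 best-ranked of the 30 were Pabpc4, Micalcl, Rrm1, Zfp622, Ptpn1, Zfp710, Ube2v1 and Msn. Rrm1, the large subunit of ribonucleotide reductase, had end peaks of 511, 701 and 788 bases in the SSC lists. The iNSC lists held 1, 2 and 1 peaks in Rrm1 that were not end peaks. Pabpc4, a cytoplasmic poly(A)-binding protein, had 413, 233 and 311 bases in SSCs. Msn, which encodes moesin, a linker of actin to the membrane, had 750, 391 and 550 bases in SSCs. Zfp710 and Ptpn1, a tyrosine phosphatase, were wider, with up to 2417 and 2599 bases in an SSC list.

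Where the other cell kind had no peak in the gene at all, the best-ranked iNSC genes were Adnp, Ptpn7, Rtn4r, Mecom, Csgalnact1, Gpr35, Apol7a and Tmem127. Rtn4r, the Nogo receptor that limits axon growth, had an end peak of 1677 bases in each iNSC list that stopped on the last annotated base. Adnp, a homeodomain protein of chromatin complexes, had 4208, 4164 and 4008 bases in iNSC lists. The SSC genes included Magi3, Basp1, Erg, Epcam, Nrp1, Tmem132c and Gjc1. Epcam, an epithelial adhesion molecule also found on spermatogonia, had a peak of 700, 700 and 530 bases and a second of 45, 45 and 45 bases in the SSC lists. Erg, an ETS transcription factor, had 2158 bases in each SSC list. Whether these genes were transcribed in the cell kind without a peak was not measured in these files.

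**Figure D5:**
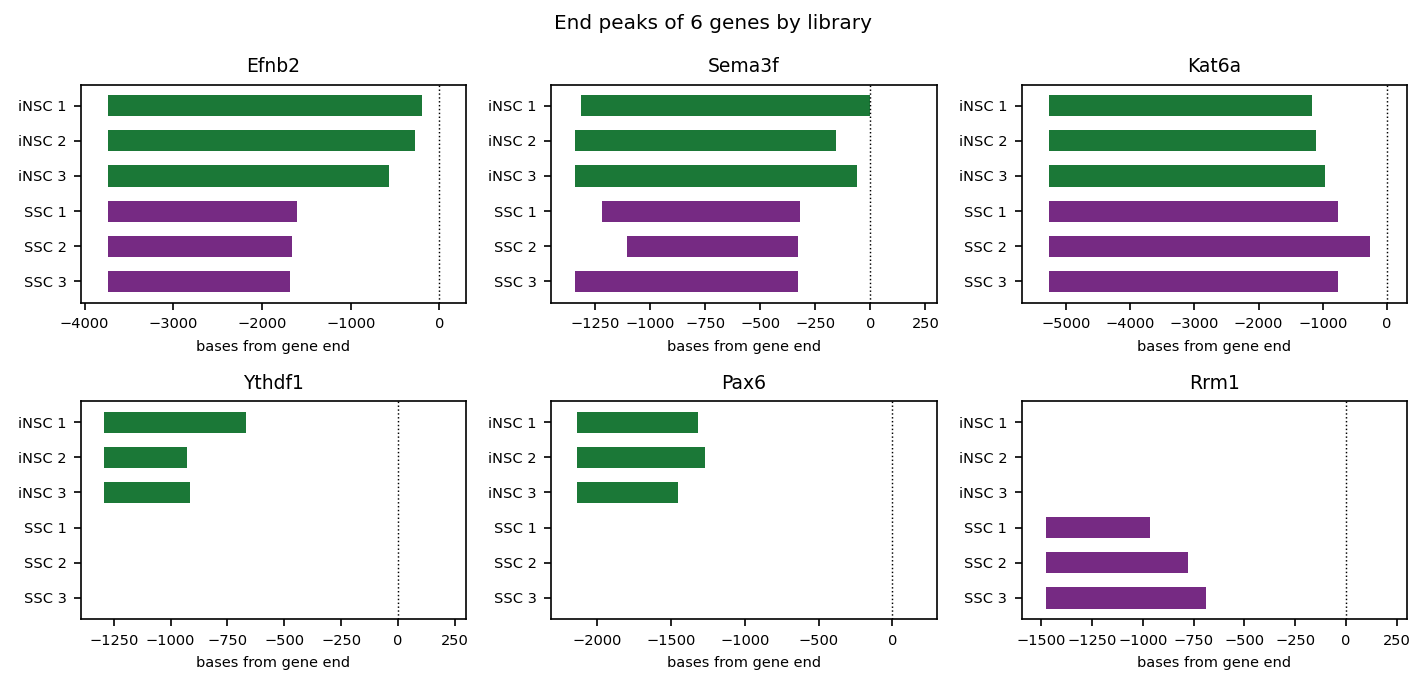
End peaks of 6 genes in the 6 libraries (rows, iNSC in green and SSC in purple), drawn as bars by distance from the gene end (x axis, bases; dotted line, gene end). Efnb2 and Sema3f reach further downstream in iNSCs, Kat6a reaches further in SSCs, Ythdf1 and Pax6 have bars in iNSC lists alone and Rrm1 in SSC lists alone.

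Genes that the series title names as an axis were followed whatever their values. Ythdf1 encodes a cytoplasmic m6A reader (chr2:180904377-180920936, minus strand). It had an end peak of 621, 364 and 378 bases in the iNSC lists, with the same upstream edge, and none in the SSC lists. SSCs held 2, 1 and 2 peaks in Ythdf1, the nearest of them 6310 bases from the gene end. The Ythdf1 end peaks were weak, at percentiles 33.1, 34.4 and 8.32. Ythdf2, another cytoplasmic reader, had end peaks of 1014, 941 and 1283 bases in iNSC lists and none in SSC lists. It was named after its values were seen.

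Nfkb1, the gene of the NF-κB precursor p105, had an end peak of 861, 784 and 708 bases in the iNSC lists. In SSC 1 and SSC 3 it had 600 and 672 bases, and SSC 2 had none, so the widths did not overlap where both were called. In the better-scoring 50% of each list, it was held by the iNSC lists less often than by the SSC lists (-66.7 percentage points of lists). Rela, the p65 subunit, had an end peak in SSC 3 alone. Ccnd1, Nfkbia, Nfkbib and Nfkbie are shorter than the minimum span, and their peaks are not counted as end peaks here. Pax6, a neural transcription factor, had end peaks of 822, 873 and 687 bases in the iNSC lists and no peak in SSCs. Of the other markers, Dazl had one in SSC 1 and Col1a1 one in iNSC 3, Ddx4, Zbtb16 and Gfra1 had none, and Nes and Sox2 are too short. These 2 neural markers did not go with Pax6. Sox2 had a peak 117, 643 and 317 bases from its end in the SSC lists and no peak in the iNSC lists. In Nes, the nearest edge lay 1374, 1634 and 750 bases from the gene end in iNSC lists. It lay 0, 5 and 0 bases from it in SSC lists.

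Over all 10196 genes with a peak, 2604, 2964 and 2687 had an end peak in the iNSC lists and 3494, 2144 and 2773 in the SSC lists, and the counts of each gene list below stand beside these as a description. No list is called apart from genes in general. Of 29 meiosis genes with a peak, 15 held an end peak in some list, 2, 2 and 2 genes in the iNSC lists and 8, 7 and 12 in the SSC lists. Sycp1, a synaptonemal complex protein, had 464 bases in each SSC list, and Meioc, needed for meiotic prophase, had 1185, 823 and 953 bases in SSCs, both with no end peak in iNSCs. Brca2, a recombination mediator, was the reverse, with 920, 752 and 781 bases in iNSCs alone. Of 19 germ cell identity genes with a peak, 0, 1 and 0 had an end peak in iNSC lists and 4, 2 and 2 in SSC lists. Ddx25, a testis RNA helicase, was SSC-only, with a peak of 213 bases and another of 189 bases in each SSC list.

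Of 15 neuronal and glial genes with a peak, 0 were iNSC-only and 3 were SSC-only, among them Elavl3 and Tubb3, and the lists held 2, 1 and 1 in iNSCs and 5, 4 and 5 in SSCs. Tubb3, a neuronal tubulin, had end peaks of up to 554, 1331 and 1409 bases in SSCs. Among the neural stem cell list, 10 genes had a peak: Pax6 was iNSC-only and 2 were SSC-only, among them Lhx2, a LIM-homeodomain factor with 856, 896 and 876 bases in SSCs. Axon guidance genes had 1 iNSC-only and 3 SSC-only of 32, and 3 (Efnb2, Epha2 and Sema3f) held an end peak in all 6 lists.

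For the NF-κB, Notch, Wnt and G1 to S lists, the number of genes with an end peak overlapped between iNSC and SSC lists. The 36 NF-κB pathway genes with a peak had 0 iNSC-only and 1 SSC-only member (Bcl3), and 15, 16 and 16 genes with an end peak in iNSCs against 14, 8 and 18 in SSCs. Tab2, an adaptor of the TAK1 kinase, had 1930 bases in each iNSC list and 1812 bases in SSC 1 alone. Of 27 Notch genes, 1 (Dtx4) was SSC-only. Notch1 had end peaks of 3075, 2744 and 2874 bases in the iNSC lists and of 1847 and 3075 bases in SSC 1 and SSC 3. Notch2 had 4315, 4315 and 4248 bases in iNSCs and 4182 bases in SSC 1 alone. Of 27 Wnt genes, 0 were iNSC-only and 1 (Axin2) SSC-only. Among 18 genes of the G1 to S step, E2f6 and E2f7 were iNSC-only and Cdkn2a SSC-only. E2f6, a repressor of the E2F family, had 1388, 1032 and 819 bases in iNSCs.

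Of 24 genes of the m6A machinery with a peak, 2 were iNSC-only (Ythdf1 and Ythdf2) and 1 was SSC-only (Hnrnpc, an RNA-binding protein, with 788, 322 and 1154 bases in SSCs). Wtap, a subunit of the methyltransferase complex, had 1256, 966 and 1091 bases in the iNSC lists and 756 and 996 bases in SSC 1 and SSC 2. Of 53 DNA and histone modifier genes, 3 (Ehmt1, Kdm2a and Kdm6a) were iNSC-only and 1 (Kdm4c) SSC-only, and 4 held an end peak in every list. Of 15 pluripotency genes, 0 were iNSC-only and 1 was SSC-only (Zfp42, with 1183, 1209 and 1177 bases in SSCs). Undifferentiated spermatogonia genes had 0 iNSC-only and 1 SSC-only (Epcam) of 15.

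Of 21 fibroblast genes with a peak, 11, 13 and 14 had an end peak in iNSC lists and 8, 4 and 10 in SSC lists, with 2 iNSC-only (Col5a2 and Tgfbi) and 0 SSC-only. Pdgfra, a PDGF receptor of mesenchymal cells, had an end peak of 3252 bases at the capped score in each iNSC list and of 307 bases in SSC 3 alone. Col5a1, a fibrillar collagen chain, had 2645 bases in each iNSC list and 811 bases in SSC 3 alone. Fbn1, which encodes fibrillin-1, had a capped peak of 1382 bases in each iNSC list and a peak of 479 bases in SSC 3. The only Fbn1 end peak of SSC 2, of 620 bases, lay on the strand opposite to the gene. SSC 1 held 2 Fbn1 end peaks, of up to 735 bases, and 1 of them lay opposite to the gene. A further Fbn1 end peak of iNSC 3 also lay opposite to the gene. Of 13 testis somatic genes, 4, 5 and 4 had an end peak in iNSCs and 4, 0 and 3 in SSCs. Over all 10196 genes the iNSC-only share was 3.89% and the SSC-only share 2.53%. The part of feeder or other mesenchymal cells in these end peaks was not tested.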

How the data were processed

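The data were 6 m6A peak lists, 1 per immunoprecipitation library, deposited by the authors with chromosome, start, end, name, score and strand. The score was deposited by the authors without a stated unit. Many scores tie at 3100, and some lie above it, such as 3110.82 for the Tmem127 end peak of iNSC 3. Scores of 3100 or more are called capped here, and the score was used only within a list. Per the submitters' processing notes, reads were trimmed or aligned with tools that include cutadapt 1.9.3 and HISAT2 2.0.4, and the build was mm9. The peak caller is not given in the sources used here. Downstream edges fell exactly on GRCm38.p6 gene ends for 13.5% to 28.6% of end peaks. After a shift of 10000 bases, they did so for 0% to 0.00377% of all peaks in exactly 1 gene, which is a larger set of peaks. GRCm38 was used on that basis.

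Starts were converted to 1-based positions. A peak was placed in a gene by an overlap of at least 1 base with 1 of 21900 protein-coding RefSeq spans, of which 13962 were at least 10000 bases long. Of the peaks, 112965 overlapped exactly 1 gene. Gene strand came from RefSeq's gene-start table. The 2 groups were set against each other by exact permutation tests (two-sided), and end against other peaks by exact sign-flip tests over 6 libraries, with Benjamini-Hochberg adjustment (Python 3.11.15, numpy 2.4.6, pandas 2.3.3), and the scripts were tested on simulated lists. A gene was called for a cell kind when 3 of 3 of its lists and 0 of 3 of the other held an end peak. Without read counts, no interval is given.

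The members, gene lists and tests were chosen with earlier results of these data known. Genes named were the title's axis and 8 markers, the 8 best-ranked per class by the lowest within-list percentile (ties, frequent at the capped score, by total end-peak width), up to 4 per list, and the 3 genes per cell kind with the most end peaks in 1 library. Ythdf2, E2f7, the genes counted in a list and the opposite-strand genes were named outside this rule, with their values known. Some genes chosen by the rule are not named. Alternatives were other windows, spans, overlaps, score limits, list lengths, joined entries, sense peaks only, 2 of 3 lists, a replicate block and leaving out each library.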

Additional observations from a re-analysis of the deposited data

Results flagged for a closer look

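The excess of end peaks over other peaks at the capped score differed in direction between the cell kinds. It averaged 6.98 percentage points in iNSC lists (5.20, 7.17 and 8.57) and -0.762 points in SSC lists (-0.578, -0.358 and -1.35). Every iNSC list was above 0 and every SSC list below it. The test of the difference itself, 7.74 points, gave an exact permutation p of 0.1, the smallest that 3 lists against 3 allow, and an adjusted p of 0.12 over 12 comparisons. With only the better-scoring 50% of peaks, the difference was 4.05 points.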

How the results depend on the processing

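The gaps in share, width, edge position, score rank and capped share kept their direction under every alternative run, as did the results on sites called once per list. The share gap ran from 6.60 to 13.3 points, the width gap from 436 to 606 bases and the share of edges at the gene end from 15.1 to 20.2 points (iNSC minus SSC). The gap in score rank ran from 7.31 to 17.97 points, that in capped excess from 4.05 to 8.63 points, with both lowest in the better-scoring 50%, and that in median edge distance from -550 to -140 bases, by window. The gap in Jaccard index ran from 13.4 to 32.8 points. The differences in the number of end peaks and of genes with one reversed: 121 and 169 with a window of 1000 bases, 271 and 294 with the better-scoring 50% of peaks, and 958 and 926 with lists of equal length. Leaving out 1 library gave -590 to 226 end peaks and -382 to 293 genes. SSC-only genes numbered 164 with the narrow window, 134 in the better-scoring 50%, 125 with equal lengths and 784 when 2 of 3 lists sufficed. iNSC-only genes numbered 704 with equal lengths. Among genes with a peak in all 6 lists, the better-scoring 50% gave 85 iNSC and 12 SSC genes, equal lengths gave 13 SSC genes and 2 of 3 lists gave 126. Leaving out 1 library gave 444 to 672 iNSC-only and 268 to 544 SSC-only genes, and 168 to 317 and 38 to 83 among genes with a peak in all 6. The causes were not tested, except that equal lengths and fewer lists change the rule by construction. In the better-scoring 50%, Nfkb1 was held at its end by fewer iNSC than SSC lists (-66.7 percentage points of lists), and so was Gata6 (-33.3).

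With the replicate number as a block, the mean differences stayed as they were (share 7.33 points, width 540 bases) and the smallest sign-flip p over 3 pairs is 0.25. Whether the numbers pair the libraries is not known. In their deviations, same-numbered libraries correlated at 0.0277, 0.0211 and 0.0573, and differently numbered ones at -0.0584 to 0.0304. Such values cannot show whether libraries shared a culture or a batch. Unknown depth, a score without a unit, gene spans without exons and lists of unequal length limit all results, and 3 libraries per kind limit every p.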
